A study of Homo sapiens with 8 samples.

Results

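The expression state of A549 cells without a drug was described from the 2 vehicle control arrays of the study. A gene was a member when its probe was called well above background by the scanner software on both arrays, and members were ordered by their mean log2 quantile-normalized signal. This rule kept 12385 of the 19056 genes with a named probe, or 65.0%. Another 1318 genes were well above background on the EEDS control only, 141 on the helveticoside control only, and 5212 on neither. Members reached down to a log2 signal of 4.67 on the EEDS control and 5.55 on the helveticoside control. The brightest gene probes not called well above background on the same array were at 5.22 and 6.27.

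A549 is an established human lung carcinoma line grown as an adherent epithelial culture. EEDS is the ethanol extract of the seeds of Descurainia sophia, and helveticoside is a cardiac glycoside contained in these seeds. Each agent had its own series of 4 arrays, with a control that received no drug and 3 doses, in μg/mL 1.25, then 5 and 20 for the extract, and in nM 3.75, then 15 and 60 for the glycoside. All cells were of the same line and medium, RPMI1640 with fetal bovine serum, and the labels gave an incubation of 48 h after drug addition, whereas the methods of the study gave 1 day for the arrays. EEDS was dissolved in dimethyl sulfoxide, and the solvent of helveticoside was not given in the sources used here. The RNA of 3 cultures was pooled on each array, so the 2 controls were 1 array each, the spread between cultures was not measured, and series, culture and array cannot be told apart in their difference.

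A549 cells are used as a model of the distal lung epithelium, although the line has lost part of the differentiated alveolar program. The line carries an inactivating change in KEAP1, the protein that normally sends the transcription factor NRF2 to degradation, and NRF2 target genes are known to be high in it. NRF2 binds the antioxidant response element, a short motif in front of genes for glutathione synthesis, quinone reduction and NADPH production. Helveticoside and its relatives bind the sodium pump, the enzyme that exchanges sodium for potassium at the plasma membrane.

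The arrays of the series differed in their background. On the EEDS control 64.9% of the probes were well above background, and on the helveticoside control 57.3%. The 153 negative-control spots had a scanned median of 43.5 on the EEDS control and of 125 on the helveticoside control, and over the 4 arrays of each series these medians lay between 41 and 44 and between 112 and 129. The lowest log2 signal called well above background was 4.55 on the EEDS control and 5.55 on the helveticoside control. The median SD of log2 signal between the repeated spots of a probe was 0.057 and 0.059, and no probe spot was saturated. The spot positions placed the control, low, middle and top dose of each series in separate ranges of the horizontal scan axis, the controls between 9768.1 and 11919.1 and between 9774.3 and 11924.4 scanner units, so dose and place of the array in the scan moved together in both series.

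The marker genes fitted the labelled cell in part. Of 24 epithelial genes, 21 (87.5%) were well above background on both controls, against 65.0% of all genes. The keratins of simple epithelia were among the brightest probes, with log2 signals on the EEDS and helveticoside controls of 18.55 and 18.33 for KRT7 and of 18.60 and 18.35 for KRT18. ELF3, an epithelial transcription factor, gave 13.52 and 12.84, and the protease inhibitor SPINT2 gave 15.38 and 15.14. E-cadherin (CDH1) was at 9.91 and 9.69. ESRP1, a regulator of epithelial splicing, and GRHL2, an epithelial transcription factor, were well above background on neither array.

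Genes of the mesenchymal state were measured in the same cultures. Of 14 such genes, 12 (85.7%) were well above background on both controls, against 65.0% of all genes. The intermediate filament vimentin (VIM) gave 17.42 and 17.04 and N-cadherin (CDH2) gave 12.87 and 12.61. The transcription factor SNAI2 and the cadherin CDH11 were well above background on neither. Both lists therefore held some bright probes on each array, but others were dim, such as ZEB2 at 6.56 and 6.12. The median log2 signal of measured members was 12.47 for the epithelial and 10.19 for the mesenchymal list, against 10.01 over all members.

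Alveolar type II cells make surfactant. Of their 14 genes, 6 (42.9%, against 65.0% of all genes) were well above background on both controls, 3 on the EEDS control only and 5 on neither. NKX2-1, the lung lineage transcription factor, gave 3.02 and 2.99, and the surfactant protein gene SFTPB, the lysosomal membrane gene LAMP3 and the phosphate transporter SLC34A2 were also well above background on neither. The lipid transporter ABCA3 gave 11.11 and 10.87 and CEBPA gave 10.39 and 9.75. SFTPA2 gave 11.65 and 12.43 on 1 probe and 3.02 and 3.02 on the other, which was not well above background. SFTPC, the gene that marks these cells most closely, gave 6.48 and 5.96 and was well above background on the EEDS control only.

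Single liver-type genes were bright, whereas the list as a whole lay near all genes. The median log2 signal of its measured members was 10.35, against 10.01 over all members. Of 32 liver-type genes, 21 (65.6%) were well above background on both controls, close to the share of all genes, including the fibrinogen chains FGA (11.44 and 11.10), FGB (11.70 and 11.99) and FGG (13.75 and 13.88). The transcription factor FOXA2 (13.19 and 12.81) and the urea cycle enzyme CPS1 (12.55 and 12.10) were among them. Albumin (ALB), transferrin (TF), transthyretin (TTR) and apolipoprotein B (APOB) were well above background on neither. The clotting factor gene F5, at 3.03 and 3.11, was also well above background on neither. The list thus held some bright clotting and enzyme genes and several plasma protein genes at background.

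Markers of cells that the culture should not hold were mostly at background for fibroblasts and endothelium and were measured in part for blood cells and neurons. Of 9 fibroblast genes, 2 were well above background on both controls (COL1A1 and THY1), and of 8 endothelial genes, 1 (CDH5). Of 11 leukocyte genes 6 were, the brightest being the B-cell receptor gene CD79A at 12.24 and 12.84 and CD14 at 11.46 and 11.29, whereas the B-cell gene MS4A1 was not. Of 5 erythroid genes 4 were, among them the fetal globin HBG1 at 8.20 and 8.30, whose other probe gave 3.04 and 3.11 and was not well above background. Of 8 neuronal genes 4 were, among them SNAP25 at 13.82 and 13.15, TUBB3 at 14.04 and 13.47 and RBFOX3 at 12.61 and 12.38. None of the members of these 5 lists differed by more than 2-fold between the controls.

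**Figure D1:**
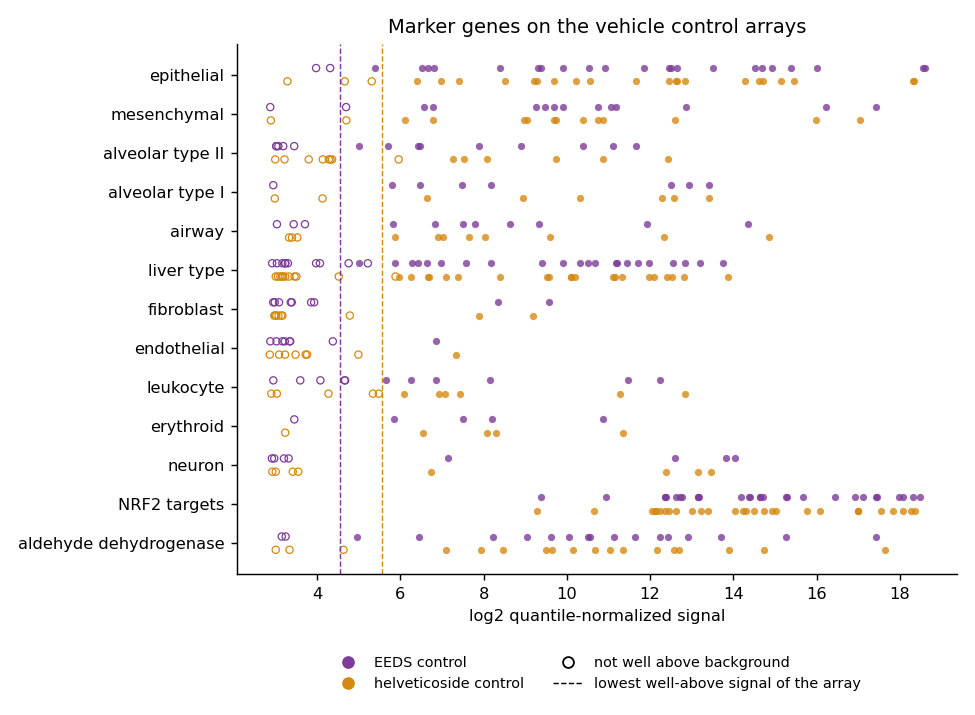
Log2 quantile-normalized signal (horizontal axis) of the members of 13 marker lists (vertical axis) on the EEDS control (purple) and the helveticoside control (orange), 1 point per gene and array; open circles are probes not called well above background and dashed lines the lowest well-above-background signal of each array (4.55 and 5.55). The NRF2 targets lie right of both lines, whereas most fibroblast and endothelial genes lie left of them.

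The NRF2 targets were measured in full and were bright. All 29 were well above background on both controls, against 65.0% of all genes, and their median log2 signal was 14.48 where that of all members was 10.01. The aldo-keto reductases gave 18.32 and 18.38 for AKR1B10, 17.99 and 18.07 for AKR1C3 and 17.45 and 17.55 for AKR1C1. The ferritin chain FTH1 gave 18.49 and 18.28 and the pentose phosphate enzyme TKT gave 18.08 and 17.83. NQO1, which reduces quinones, gave 12.73 and 12.36, and SLC7A11, the cystine importer, gave 13.14 and 13.39. Of the brightest 500 members, 13 were NRF2 targets. Signals of different probes are not amounts of transcript, so these levels describe the probes and rank no gene above another.

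The RefSeq promoters of 19 of the 29 NRF2 targets could be matched by symbol (build GRCh38.p14), and the 250 bases before each annotated start were searched for the antioxidant response element as TGACNNNGC, on both strands. The motif was held by 6 of the 19 (31.6%), by 12.04% of 9964 members with a promoter and by 11.03% of 27305 RefSeq promoters. A match is a description of these letters and not a site, and promoters without a match may hold the element elsewhere. The promoters of GCLM, the regulatory subunit of glutathione synthesis, GPX2, a glutathione peroxidase, ME1, the malic enzyme, and TXNRD1, thioredoxin reductase, are shown because GCLM was the member that differed between the controls by limma and the others belong to the same glutathione, NADPH and thioredoxin system. They run 5′ to 3′ on the gene's own strand, at chr1:93909431-93909680 (minus strand), chr14:64942746-64942995 (minus), chr6:83431052-83431301 (minus) and chr12:104215529-104215778 (plus), with the match in capitals.
GCLM: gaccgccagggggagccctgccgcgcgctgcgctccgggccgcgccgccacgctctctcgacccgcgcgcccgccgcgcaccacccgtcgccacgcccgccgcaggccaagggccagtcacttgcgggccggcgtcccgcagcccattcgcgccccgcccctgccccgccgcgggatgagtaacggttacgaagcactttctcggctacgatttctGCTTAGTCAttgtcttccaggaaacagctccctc
GPX2: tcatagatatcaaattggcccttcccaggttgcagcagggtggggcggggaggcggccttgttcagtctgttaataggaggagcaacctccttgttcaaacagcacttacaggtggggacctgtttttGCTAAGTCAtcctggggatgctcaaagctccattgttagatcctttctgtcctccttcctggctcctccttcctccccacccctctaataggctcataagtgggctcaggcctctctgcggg
ME1: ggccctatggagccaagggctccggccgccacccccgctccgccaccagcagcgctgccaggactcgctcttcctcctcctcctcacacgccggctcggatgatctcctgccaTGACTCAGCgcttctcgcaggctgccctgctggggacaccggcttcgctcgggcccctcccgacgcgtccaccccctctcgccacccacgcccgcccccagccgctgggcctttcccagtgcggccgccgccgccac
TXNRD1: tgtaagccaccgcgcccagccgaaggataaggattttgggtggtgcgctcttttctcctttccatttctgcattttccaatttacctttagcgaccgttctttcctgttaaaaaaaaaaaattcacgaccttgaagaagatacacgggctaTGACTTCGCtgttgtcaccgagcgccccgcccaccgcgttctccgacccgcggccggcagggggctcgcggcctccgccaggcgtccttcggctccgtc
The match began 34 bases before the annotated start in GCLM, 122 in GPX2, 137 in ME1 and 99 in TXNRD1. CBR1 and PGD held the other matches.

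Most of the targets were slightly lower on the helveticoside control. Their median difference, helveticoside minus EEDS control, was -0.17 log2, against -0.11 over all members, with 23 of the 29 below 0 and 7 above the median of all members. GCLM was at 14.65 on the EEDS control and at 15.77 on the helveticoside control. Heme oxygenase (HMOX1) was at 13.16 and 12.05. GCLM was higher on the helveticoside side in limma (1.01, SE 0.16, adjusted p = 0.0357), whereas HMOX1 did not pass (adjusted p = 0.171). This test and its limits are described with the other differences.

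Of 18 aldehyde dehydrogenases, 15 (83.3%, against 65.0% of all genes) were well above background on both controls. Their median log2 signal was 10.90, near that of all members, with 2 bright probes. ALDH1A1, which oxidizes retinal and serves as a stem cell marker, gave 17.44 and 17.65, and ALDH3A1 gave 15.26 and 14.73. Of 54 cytochrome P450 genes, 25 (46.3%, against 65.0% of all genes) were well above background on both controls and 24 on neither. CYP2W1 was the brightest of them with 18.83 and 19.03. CYP1A1, the classical target of the aryl hydrocarbon receptor, was well above background on neither. CDKN2A, MTAP and CDKN2B lie in a region of chromosome 9 that is known to be deleted in A549. CDKN2B gave 2.93 and 3.01, not well above background. CDKN2A gave 11.31 and 11.56 on 1 probe and 3.07 and 2.97 on another, and MTAP gave 11.75 and 11.82 on 1 probe, with its other 2 probes not well above background. The probes of these genes thus disagreed on both arrays in the same way.

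The genes of growth were measured almost in full, whereas 65.0% of all genes were well above background on both controls. All 32 genes of DNA replication and all 29 of mitosis were well above background on both controls, among them the thymidine kinase TK1 (17.07 and 16.64), the helicase subunit MCM7 (15.91 and 15.67), the survivin gene BIRC5 (14.86 and 14.72) and the separase inhibitor PTTG1 (15.50 and 15.28). Of 84 ribosomal protein genes 83 were, of 84 genes of oxidative phosphorylation 80, of 65 replication-dependent histone genes 60, of 25 cholesterol synthesis genes all, and of 22 heat shock genes 21. Ribosomal protein genes made up 51 of the brightest 100 members and 78 of the brightest 500. Inducible lists varied. Of 26 chemokine and NF-kappa B genes 13 were well above background on both, with IL6, IL1B and CXCL10 on neither, and of 26 interferon genes 16 were (61.5%), whereas 24 of 29 immediate early genes, 19 of 20 hypoxia genes and 17 of 19 ATF4 targets were. Of 15 sodium pump genes 10 were (66.7%, near the 65.0% of all genes), with the beta subunits ATP1B1 at 15.59 and 15.34 and ATP1B3 at 15.83 and 15.63.

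The 15 brightest members by the rule were RPS2, NAA40, RNA28SN5, CYP2W1, SLC66A1, FUT6, AS3MT, KRT81, SNAR-A3, RPL13, RPLP1, GPR155, SUZ12P1, H4C3 and RPS16. RPS2, a protein of the small ribosomal subunit, was the brightest on all 8 arrays at 19.44, and its difference of 0 follows from quantile normalization, which sets equal ranks to equal values. For several of these names the other probe of the gene was dim. NAA40, an N-terminal acetyltransferase, gave 19.05 and 19.16 on 1 probe and 7.42 and 7.69 on the other. AS3MT, an arsenic methyltransferase, gave 18.77 and 18.80 on 1 probe and 6.77 and 6.64 on the other. FUT6, a fucosyltransferase, gave 18.75 and 19.05 on 1 probe and 2.91 and 4.40 on the other, which was not well above background, and 2 further probes of GPR155 gave 4.17 and 4.32 and 5.54 and 5.33, against 18.57 and 18.71 on its brightest. These names are therefore uncertain, whereas the other 2 probes of RPS2 were bright, at 18.44 and 17.58 and at 16.79 and 16.10. RPLP1 and RPS16 had 1 probe each, and some ribosomal genes had a dim probe, such as RPL10 at 5.80 and 5.62.

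The 2 controls were close to each other for most genes. Across the 12385 members, which are not independent replicates, Pearson's r between the arrays was 0.981 and Spearman's rho 0.980. The log2 difference had a median of -0.11 and an SD of 0.50, and 6985 members (56.4%) lay within 1.25-fold. Of the brightest 100 genes of each array 90 were shared, and of the brightest 500 genes 459. Signals on the helveticoside control were over 2-fold higher for 476 members and over 2-fold lower for 180, which were 3.84% and 1.45% of all members, or 5.30% together. With 1 array a control there is no other pair of undrugged arrays to set these shares against. Past 4-fold, 34 were higher and 13 lower. With the arrays scaled by their 75th percentile and not quantile-normalized, 89.0% of the genes past 2-fold were higher on the helveticoside control, against 72.6% here.

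**Figure D2:**
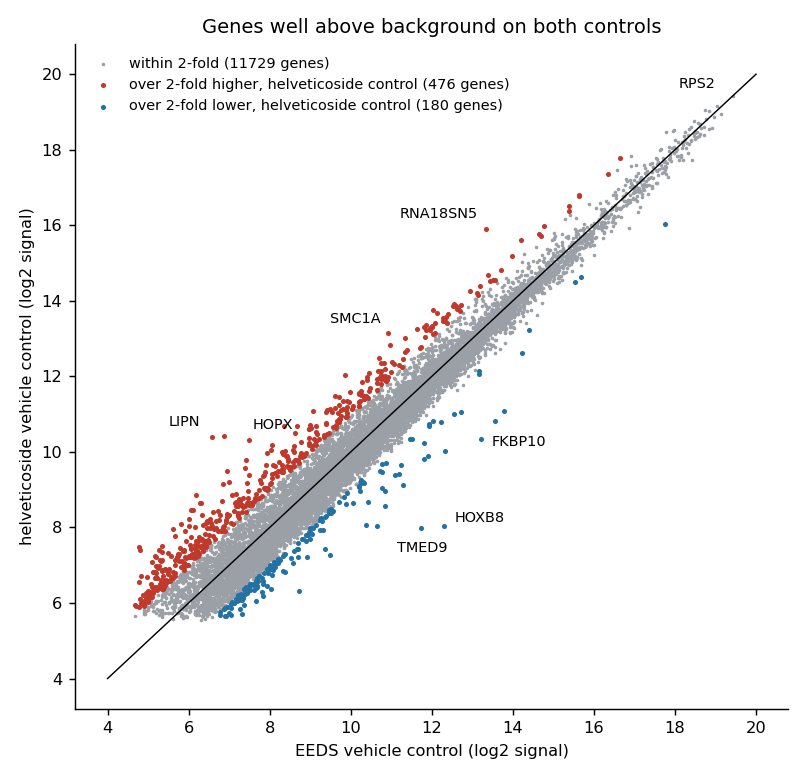
Log2 quantile-normalized signal of the 12385 members, EEDS control on the horizontal and helveticoside control on the vertical axis, 1 point per gene. The line marks equal signal; red points are the 476 genes over 2-fold higher and blue points the 180 over 2-fold lower on the helveticoside control, and the 8 named genes include LIPN and HOXB8.

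Dim genes differed more often than bright genes. The members were split by signal into 4 groups of equal size. In the dimmest group, with a mean log2 signal of 5.16 to 8.26, 7.75% were over 2-fold higher and 3.33% lower on the helveticoside control. In the brightest group, above 11.84, these shares were 1.84% and 0.32%. Without background subtraction the counts were 225 higher and 58 lower, and the part of the higher background of the helveticoside array in these differences was not tested. The class of transcript also differed. Of 237 long noncoding RNAs that were members, 29 were over 2-fold higher and 0 lower, with a median difference of 0.18, and of 198 transcribed pseudogenes 18 were higher and 1 lower, with a median of 0.15. Of 11911 protein-coding members, 427 were higher and 178 lower, with a median of -0.12.

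**Figure D3:**
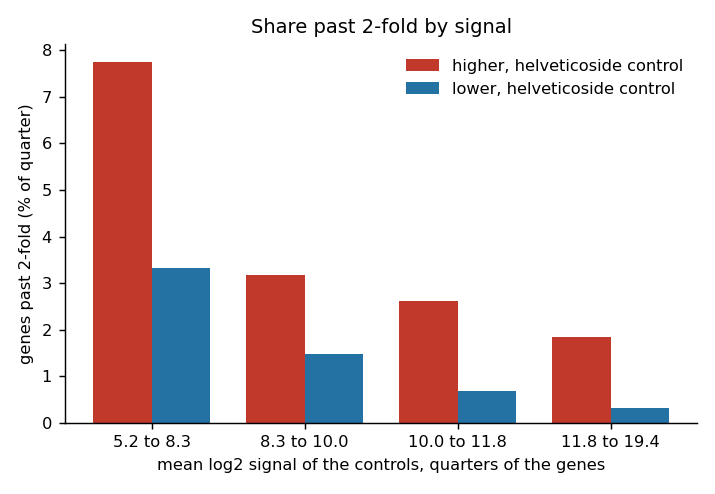
Share of genes over 2-fold higher (red) and over 2-fold lower (blue) on the helveticoside control, in percent (vertical axis), within 4 equal groups of members ordered by mean log2 signal over both controls (horizontal axis). Both shares fall from the dimmest group (7.75% and 3.33%) to the brightest (1.84% and 0.32%).

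The same genes were looked up on the treated arrays, where EEDS and helveticoside were compared at the low, middle and top dose. These pairs share no array with the controls, but their agents and doses differ, so the values stand side by side. Of the 476 genes higher on the helveticoside control, 432 (90.8%) were higher on the helveticoside array at the low dose, 443 at the middle and 449 at the top dose, whereas of all members 39.9%, 36.7% and 42.2% were. Of the 180 lower genes, 175 (97.2%), 178 and 176 were lower, whereas of all members 60.0%, 63.2% and 57.7% were. Past 2-fold in the same direction were 62.0%, 62.6% and 66.4% of the higher genes and 57.2%, 60.6% and 55.0% of the lower genes. Of all members, at most 5.70% were past 2-fold in either direction at any dose. The median difference of the higher genes was 1.25 on the controls and 1.22, 1.19 and 1.24 on the treated pairs. The genes past 2-fold on the controls thus mostly differed in the same direction between the 2 series at every dose. The negative-control spots separated the series on all 8 arrays as well, and the part of a series-wide difference of the arrays in these genes was not tested.

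Because each control was 1 array, the difference had no replicate error of its own. limma was therefore fitted over all 8 arrays with an intercept and a slope on dose step for each series, and the difference of the intercepts was tested with Benjamini-Hochberg adjustment over 13844 genes, those well above background on at least 1 control. In this test 148 genes (1.07%) were higher on the helveticoside side and 38 (0.274%) lower at an adjusted p under 0.05, and 1112 and 1169 had an unadjusted p under 0.05. Of the genes past 2-fold, 119 higher and 23 lower were called. The control arrays entered both the fold and the fit, so this overlap is not independent support, here or for the named genes below. Of the calls, 16 higher and 5 lower were genes well above background on 1 control only, which had entered the test through that control. A gene that missed the threshold is not shown to be equal between the controls. The fit had 4 residual degrees of freedom and took the scatter about straight dose lines for the error. Leaving out any treated array lowered the calls, to 4 higher and 4 lower without the EEDS low dose, 24 and 16 without the middle, 38 and 20 without the top dose, 5 and 5 without the helveticoside low dose, 11 and 8 without the middle, and 15 and 10 without the top dose.

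The largest difference upward was that of LIPN, a lipase of the epidermis. Its log2 signal was 6.57 on the EEDS control and 10.40 on the helveticoside control, or 14.2-fold, and it lay between 6.12 and 6.50 on the treated EEDS arrays and between 10.25 and 10.70 on the treated helveticoside arrays. The series did not overlap in it. Without background subtraction its difference was 2.92 in place of 3.83, and limma gave 3.94 (SE 0.25, adjusted p = 0.00227).

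CHAT, the acetylcholine synthase of cholinergic neurons, and HOPX, a homeodomain protein of alveolar type I cells, differed in the same direction. CHAT was at 6.88 and 10.41 on the controls, and limma gave a difference of 3.84 (SE 0.31, adjusted p = 0.00745). HOPX was at 7.49 and 10.31, and limma gave 2.90 (SE 0.21, adjusted p = 0.00346). The second HOPX probe was at 2.98 and 3.03, not well above background, and no other type I gene was past 2-fold, with AQP5 at 8.18 and 8.95, CAV1 at 13.41 and 13.41 and PDPN at background. Of the 6 type I genes measured on both controls, 4 were above 0 and 5 above the median of all members. The HOPX difference thus rested on 1 of its 2 probes.

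SMC1A, a core subunit of cohesin, was at 10.92 and 13.14, and limma gave 2.09 (SE 0.18, adjusted p = 0.00775). A second of its probes moved alike, at 8.16 and 9.87, and the last did not, at 8.37 and 8.19. MAP3K4, a kinase of the stress-activated pathways, was at 9.72 and 11.46 on its brightest probe and at 7.37 and 6.90 on the other. The calcium-binding protein gene S100A5 was at 9.86 and 12.04, the testis-type TFIID subunit TAF1L at 6.07 and 8.47, the muscle-type cytochrome oxidase subunit COX6A2 at 6.29 and 8.66 and the sperm protamine PRM2 at 6.19 and 8.85. All 6 were higher in limma, with adjusted p-values from 0.00775 to 0.042. RNA18SN5, a copy of the 18S ribosomal RNA, was at 13.35 and 15.91 (adjusted p = 0.0134), whereas RNA28SN5, of the 28S RNA, was at 19.13 and 18.94. The 18S and 28S RNAs carry no poly(A) tail, and what their probes measured after amplification was not tested.

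The other genes of the 15 largest upward differences were KLK9, FGD2, SCN3A, C1RL-AS1, ITGA9, PEG10, CYP3A4 and TESPA1. limma called 10 of the 15. It did not call KLK9 (adjusted p = 0.0788), FGD2 (0.107), SCN3A (0.395), PEG10 (0.266) or CYP3A4 (0.0969). FGD2, an activator of CDC42, was at 4.79 and 7.41 on the controls, and its difference of 2.62 was 0.85, 0.35 and -0.69 on the treated pairs. Without background subtraction it was 1.18. C1RL-AS1, an antisense RNA, was at 7.41 and 9.78 on 1 probe and at 7.72 and 7.89 on the other.

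The largest difference downward was that of HOXB8, a homeobox gene of the posterior body axis. It was at 12.30 on the EEDS control and at 8.05 on the helveticoside control, or 19.0-fold lower on the latter, and lay between 10.58 and 12.51 on the treated EEDS arrays and between 6.96 and 8.54 on the treated helveticoside arrays. limma gave a difference of -4.21 (SE 0.44, adjusted p = 0.0134). TMED9, a cargo protein of the early secretory pathway, was at 11.73 and 7.98, and limma gave -3.78 (SE 0.22, adjusted p = 0.00191). Both stood apart between the series on every array and each had 1 probe.

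FKBP10, a collagen chaperone, was at 13.21 and 10.34, TAF15, an RNA-binding protein, at 13.55 and 10.81, the lysosomal protease CTSZ at 12.32 and 10.02 and the zinc transporter SLC39A7 at 10.86 and 8.97. APH1A, a subunit of gamma-secretase, was at 11.28 and 9.12, and its second probe moved the same way, at 9.79 and 7.57. PPP3R1, the regulatory subunit of calcineurin, was at 10.37 and 8.07, whereas its second probe was at 8.19 and 8.34. The median over the probes of PPP3R1 differed by -1.07 in place of -2.30. These 6 genes were lower in limma with adjusted p-values from 0.00745 to 0.0151. NPM3, ATF6B, UBE2E1, RAC3, ZNF687, AP2B1, TMEM65 and PATL1 completed the 15, of which limma called 12 and not NPM3 (adjusted p = 0.0548), RAC3 (0.234) or PATL1 (0.0547).

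**Figure D4:**
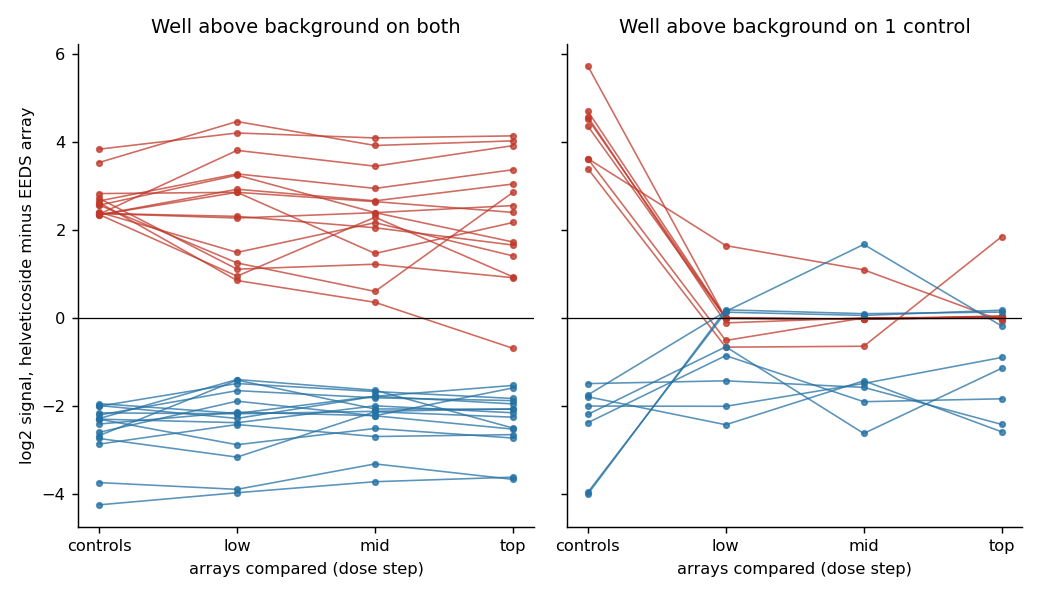
Log2 difference, helveticoside minus EEDS array (vertical axis), on the controls and on the low, middle and top dose arrays (horizontal axis), 1 line per gene: left, the 15 genes highest (red) and 15 lowest (blue) members on the helveticoside control; right, the 8 with the largest bound on each control only. On the left 29 of 30 lines stay on their side of 0 at every step, the exception being FGD2, and on the right red lines that include P2RX7, OR4P4, ZNF793 and ZC3H12B and 2 blue lines (PRSS54 and ADAM3A) drop to about 0 on the treated pairs.

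The agreement between the probes of a gene was limited. Of the 476 higher genes, 102 had at least 2 probes well above background on both controls, and in 58 of these all probes were higher, in 7 all by more than 2-fold, and in 2 a probe was over 2-fold lower. The 123 other probes of these genes had a median difference of 0.19, and 79 were above 0. Of the 180 lower genes, 15 had at least 2 such probes, with all lower in 12 and all by more than 2-fold in 3, and the 16 other probes had a median of -0.34. Over all 2781 genes with several such probes, the other probes had a median of -0.09, and 42.5% were above 0. Most of the genes past 2-fold thus stood on 1 such probe, 374 of the higher and 165 of the lower. So did most genes at large, since 2781 had several such probes where the members numbered 12385.

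For a gene well above background on 1 control only, the fold is a bound: the bright signal was set against the higher of the dim probe's own signal and the lowest signal called well above background on the dim array. The complement factor CFB was at 7.72 on the EEDS control and at 5.34 on the helveticoside control, or at least 4.50-fold lower on the latter. STAC3, of the muscle calcium channel complex, was at least 3.47-fold lower and the small heat shock protein HSPB8 at least 2.82-fold lower. PRSS54 and ADAM3A had bounds of at least 3.65-fold and 3.50-fold, but their differences on the treated pairs were between 0.05 and 0.18. RNU12, KCTD16 and XK completed the 8 largest, and limma called 0 of these 8 (adjusted p = 0.16 for CFB). Of the 1318 genes of this class, 63 had a bound past 2-fold, and of the 141 seen on the helveticoside control only, 140 had. The lowest signal called well above background was 4.55 on the EEDS control and 5.55 on the helveticoside control. Bounds therefore start higher for genes seen on the helveticoside control only, and the directions cannot be compared by them.

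In the other direction, the purinergic receptor P2RX7 was at 2.92 on the EEDS control and at 8.65 on the helveticoside control, at least 17.1-fold higher, and CDNF, a neurotrophic factor, at 4.74 and 8.36, at least 12.3-fold higher. The olfactory receptor OR4P4, the zinc finger gene ZNF793 and the ribonuclease gene ZC3H12B had bounds of at least 8.80, 8.58 and 6.96-fold. On the treated pairs the differences of P2RX7 were -0.01, -0.03 and 0.00, and those of OR4P4 and ZC3H12B all lay within 0.05 of 0. VIPR2, a receptor for vasoactive intestinal peptide, had a bound of at least 6.92-fold and was well above background on 1 of the 8 arrays, the helveticoside control, through which it entered the limma test (adjusted p = 0.0471). Its other probe was at 3.08 and 3.20, not well above background, and CDHR4 had a bound of at least 8.40-fold. Of the 8 largest bounds in this direction limma called 1, that of VIPR2, and not P2RX7 (adjusted p = 0.216) or CDNF (0.423). The second P2RX7 probe was at 2.85 and 2.86, not well above background.

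These bright probes were partly neighbours on the array. On the helveticoside control 88 probes were well above background and over 4-fold brighter than on any other array, and 33 of them lay next to another such spot, within 16 scanner units. P2RX7, OR4P4, ZNF793, CDNF and VIPR2 were among these. On the EEDS control there were 36 such probes, of which 4 lay next to another. Of the 141 genes well above background on the helveticoside control only, 36 had such a probe and 16 a neighbouring one. On the treated helveticoside arrays 46 of 87 (low), 39 of 87 (middle) and 59 of 115 (top dose) such probes lay next to another. On the treated EEDS arrays 6 of 32, 7 of 43 and 18 of 125 did. Neighbouring probes were thus not particular to the helveticoside control.

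The gene lists differed little between the controls. Of 34 lists, the medians over members lay between -0.49 for the neuronal list and 0.53 for the erythroid list, both with 4 members, against -0.11 over all members. Among lists with at least 20 members, immediate early genes had the lowest median (-0.39, 4 of 24 above 0 and 5 above the all-member median). Among them JUNB was at 9.43 and 8.68, FOS at 9.26 and 8.38 and MYC at 13.57 and 12.62. SRF, the factor that controls many of them, was at 6.95 and 5.89 and was the only one past 2-fold, and limma called none. The mitotic genes had a median of -0.01, which was 0.06 without background subtraction, and MKI67 at 9.89 and 10.93 and CENPF at 12.71 and 13.72 were past 2-fold without passing limma (adjusted p = 0.15 and 0.517).

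Glycolytic genes had a median of -0.31, with 2 of 15 above 0 and 3 above the median of all members. The enolase ENO1, at 16.88 and 15.93, was lower in limma by 0.97 (SE 0.11, adjusted p = 0.0148), and GAPDH, at 17.83 and 17.27, was lower (-0.57, SE 0.10, adjusted p = 0.043). Phosphofructokinase PFKL went the other way at 12.63 and 13.78 (adjusted p = 0.0997). GAPDH and the other 13 housekeeping genes had a median of -0.21, and the remaining ones included ACTB at 18.62 and 18.41 and YWHAZ at 13.63 and 13.64. The ATF4 targets had a median of -0.30 and the hypoxia genes of -0.26, with no member past 2-fold on the probe used. A second probe of VEGFA was past it, at 7.65 and 6.56.

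Replication-dependent histone genes had a median of 0.18, with 45 of 60 above 0 and 50 above the median of all members. Their mRNAs end in a stem-loop and lack a poly(A) tail. H2BC6 was at 8.68 and 10.68, H2AC16 at 8.06 and 9.43, H1-5 at 9.89 and 11.11 and H1-3 at 13.98 and 15.19, and H4C11 differed by 1.31. These 5 of 60 were past 2-fold and none was lower by 2-fold, where 3.84% of all members were higher and 1.45% lower. In limma none of the list was called (the smallest of these 5 adjusted p-values was 0.0628 for H1-3). The ribosomal protein genes had a median of -0.03, which was 0.22 with scaling to the 75th percentile, and only RPL8 passed limma (18.21 and 17.73, adjusted p = 0.0435). Among the P450 genes, CYP17A1, an enzyme of steroid synthesis, was at 8.96 and 10.59 and higher in limma (1.89, SE 0.26, adjusted p = 0.0258).

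The remaining lists held few differences. BAX, a mediator of apoptosis under p53 control, was at 13.16 and 12.14 on its brightest probe and at 8.96 and 7.57 on the other, and was the only p53 target past 2-fold (limma adjusted p = 0.0948). PTPN14, a regulator of YAP, was at 9.15 and 10.54 (adjusted p = 0.0731). The sodium pump list had a median of -0.15, and its regulator FXYD1, at 5.39 and 6.43, was past 2-fold (adjusted p = 0.813). No member of the epithelial, mesenchymal, liver-type or airway lists was past 2-fold or called by limma on the probe used for its gene. The same held for the aldehyde dehydrogenase, DNA replication and glucocorticoid lists. By that probe, those measured on both controls all lay within 2-fold. A second probe of the mesenchymal gene ZEB1 did not, at 7.69 and 9.02, where the probe used was at 9.90 and 9.73.

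**Figure D5:**
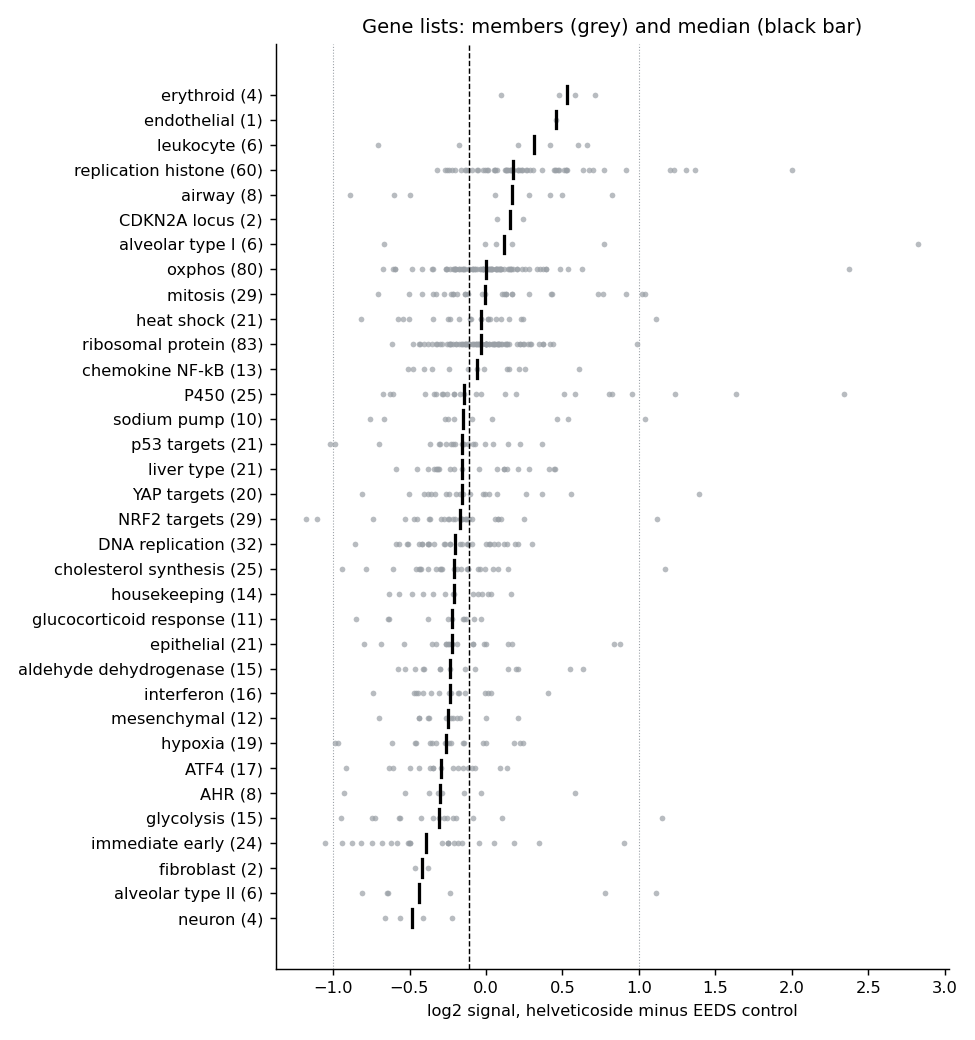
Log2 difference, helveticoside minus EEDS control (horizontal axis), of the members of 34 gene lists that were well above background on both controls (grey points, number of members in parentheses), ordered by list median (black bars). The dashed line is the median over all members (-0.11) and the dotted lines mark 2-fold; list medians lie between -0.49 and 0.53.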

How the data were processed

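RNA pooled from 3 cultures per condition was hybridized to 8 one-colour Agilent whole human genome arrays, 1 per condition. The authors deposited, for each array, intensity values per spot from the Agilent scanner software: a median signal, a local background, a processed signal from which background had been subtracted, and quality calls. They also deposited a table of intensity values, which from its values was quantile-normalized within each series separately and was used as an alternative. No column of other samples was found (0).

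Control spots and outlier spots were left out, processed signals were averaged over the spots of a probe (999 probes had 10 spots), followed by quantile normalization over all 8 arrays and log2 transformation. All spots of 22 probes were outliers. Probes were matched by transcript accession to RefSeq genes of GRCh38.p14: of 34105 probes 24812 had a gene and 9293 none. For the 4797 genes with several probes, the probe with the highest mean signal over the 8 arrays was used. A probe was well above background when more than 50% of its used spots were called so. Signals were compared between arrays only, never between probes as amounts, and 1 array per group limits the precision.

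R 4.3.3 with limma 3.58.1, with trend and robust estimation (statmod 1.5.0), was used for the test described in the report, which was tested on simulated data. Python 3.11.15 with pandas 2.3.3, numpy 2.4.6 and matplotlib 3.10.9 gave the other values and the figures. Named were the 15 brightest members, the 15 largest differences in each direction, the 8 largest bounds in each direction, the 8 smallest adjusted p-values in each direction and members of 34 gene lists. The values of some of these genes are not reported here. The members and lists were chosen with earlier results of these data known. Alternatives were the scanned signal, normexp (offset 50), 75th percentile scaling, quantile normalization of the 2 controls, the deposited table, other probe rules, thresholds and filters, and other limma models.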

Additional observations from a re-analysis of the deposited data

Results flagged for a closer look

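On the EEDS control, 2 of the spike-in control probes, whose transcripts are added with a labelling kit and are not made by the cells, gave a signal above the negative-control spots. The E1A probe (+)E1A_r60_a22 had a median processed signal of 29.6 over 32 spots and the ERCC-00062_278 probe had 25.35 over 10 spots, where the negative controls had 5.35. These were the only ones of 10 E1A and 12 ERCC probes well above background on that control, and none was on the helveticoside control. Such probes were not particular to the EEDS control: among the treated arrays, 1 ERCC probe was well above background on the EEDS low and middle doses and on the helveticoside middle and top doses, 2 were on the EEDS top dose, and 1 E1A probe was on the EEDS middle dose.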

How the results depend on the processing

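No paired analysis was possible because each group had 1 array and no replicate numbers. With the limit of 1.4 times the local background in place of the well-above-background call, 18783 genes counted as measured on both controls. The genes over 2-fold higher and lower on the helveticoside control numbered 225 and 58 with the scanned signal and 234 and 62 with normexp. They numbered 601 and 74 with 75th percentile scaling, and 300 and 110 in the deposited table after its control columns were quantile-normalized together. With the limit of 1.4 times the background they numbered 1084 and 884 (55.1% higher), and with no filter 1097 and 884 (55.4% higher). At other thresholds they were 1230 and 1163 (1.5-fold), 89 and 30 (3-fold) and 34 and 13 (4-fold). The limma calls, 148 and 38, were 1460 and 2038 with 1 slope shared by both series, 1367 and 1836 with the shared slope and without the top doses, and 4 and 3 with the controls and lowest doses only. The lower calls were 104 without trend and robust estimation, where the higher were 218, 68 with no filter and 23 with 75th percentile scaling. Leaving out 1 treated array gave 4 to 38 higher and 4 to 20 lower calls. The cause of these changes was not tested, beyond the fewer arrays or other thresholds themselves. All 204 values of list medians under the alternatives moved by less than 0.35 log2, the spread between arrays taken from the SD of the control differences. So did 247 values of named genes, while 59 moved further. This limit is larger than most list medians, so a median could change sign within it, as the mitotic and ribosomal ones did above. No value past 2-fold reversed, and smaller values were not checked for a reversal.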
